A study of Mus musculus with 6 samples.

Results

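Langerhans cells, the dendritic cells of the epidermis, were followed in single-cell RNA-seq of mouse skin. A cell counted as a Langerhans cell when it held UMIs (counted RNA molecules) of Cd207, H2-Ab1 and Cd74 and of Epcam or Mfge8, and none of Cd3e or Cd3g. It also had to hold under 10 UMIs of C1qa, C1qb and C1qc together and under 20 of Krt5 and Krt14 together, per 10000 UMIs of the cell. This rule found 344 of 21178 deposited cells, 1.62%. The skin came from 6 mice of the NINJA strain, a line built so that a neoantigen can be switched on, aged 6 to 12 weeks. All 6 had 4-OH-Tam on the sampled skin area. NO_AG (antigen off), AG (antigen on) and AG_CPI (antigen on, with a CPI treatment that the labels do not spell out) had 2 mice each. The labels do not say which cells carry the antigen, and they give no sex, batch or date.

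Langerhans cells sit between keratinocytes, to which they are held by E-cadherin, and depend on signalling through the receptor encoded by Csf1r. Cd207 encodes langerin, a lectin that forms Birbeck granules. They take up antigen in the epidermis, load it on class II molecules for CD4 T cells and on class I molecules for CD8 T cells, and carry it to lymph nodes when they mature and gain Ccr7. Interferon-gamma from T cells is a known inducer of the class I pathway in many cell types.

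The libraries held 1736 to 4972 cells and 5903724 to 24656382 UMIs, with 2527 to 4744 UMIs in the median cell. AG_CPI 1 stood apart: outside the T cell gate 15.4% of its 460 cells had a UMI of the Y-linked gene Ddx3y and 0.87% one of Xist, while the other 5 libraries had no Ddx3y UMI in these cells and Xist in 65.8% to 86.1%. Pairs of libraries shared 5 to 35 cell barcodes, and no pair shared a barcode among its Langerhans cells.

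Genes that the rule did not use matched the Langerhans label in NO_AG. In NO_AG 1 and NO_AG 2, 182 of 188 and 116 of 119 members held a UMI of Csf1r or of Ltc4s, which encodes leukotriene C4 synthase. In AG 1 and AG 2 it was 23 of 28 and 7 of 7, and in AG_CPI 1 it was 0 of 2. A cell type with the same langerin and class II genes, the type 1 dendritic cell, is defined by Xcr1 and Clec9a. UMIs of either were found in 3, 1, 5 and 2 members of NO_AG 1, NO_AG 2, AG 1 and AG 2, and in both members of AG_CPI 1.

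The 13 cells with Xcr1 or Clec9a went against the label. Csf1r was found in 7.69% of them and Ltc4s in 23.1%, compared with 86.7% and 96.1% of the other 331 members. Their mean Epcam was 2.74 UMIs per 10000 and their mean Mfge8 2.37, compared with 15.7 and 37.4 in the other members. All 13 held Irf8, which encodes a transcription factor of type 1 dendritic cells, at a mean of 18.9 per 10000 compared with 1.07. The shares, the gene lists and the genes that these cells bear on are also given without them, which leaves 185, 118, 23 and 5 members in NO_AG 1, NO_AG 2, AG 1 and AG 2 and none in AG_CPI. The 2 members in AG_CPI 1 cannot be called Langerhans cells from these markers.

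**Figure D1:**
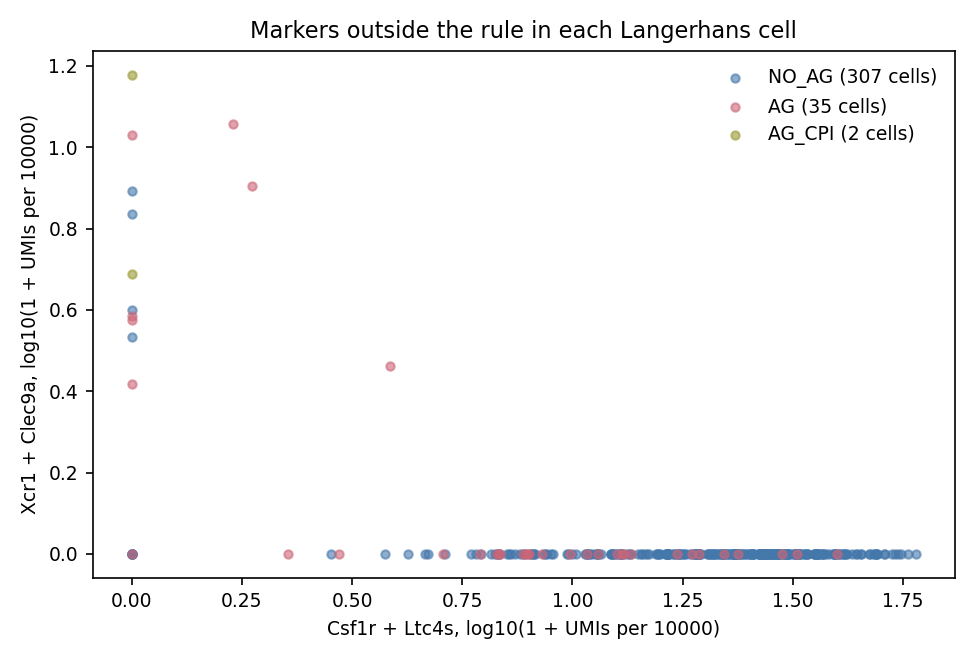
Summed Csf1r and Ltc4s (x) and summed Xcr1 and Clec9a (y) in each cell that met the rule, both as log10 of 1 plus UMIs per 10000, coloured by group. Of the 13 cells above 0 on the y axis 10 lie at 0 on the x axis, both AG_CPI cells among them, and the other 3 lie above it, at up to 2.85 UMIs per 10000.

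The genes with the highest ratio of Langerhans cells to any other gated class were listed for NO_AG as a description, since the cells were chosen by their own genes. Tcea3, a transcription elongation factor gene, stood at 3.20 and 3.06 UMIs per 10000 in NO_AG 1 and NO_AG 2, compared with 0.367 in the C1q-high macrophage gate, the next highest class. Hcar2, a receptor for nicotinic acid and ketone bodies, had 2.14 and 2.42 compared with 0.273 in the cells of no gate. P2rx2, an ATP-gated channel, had 4.11 and 3.82, and Hpgds, a prostaglandin D synthase, had 10.1 and 10.6, compared with 0.689 and 2.31 in the C1q-high macrophage gate. The other 4 of the 8 highest ratios were Gcnt2, Lpar3, Paqr4 and Tmem45b, at ratios from 4.45 to 5.52. That macrophage gate had 28 and 23 cells in NO_AG 1 and 2, of which 7 and 6 met every condition of the rule but the C1q one.

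The rule's own genes are given as levels only. Cd207 (GRCm38 chr6:83671215-83677857, minus strand) had a median of 21.8 and 20.4 UMIs per 10000 over the members of NO_AG 1 and NO_AG 2. It had 14.6 in AG 1 and 2.63 in AG 2. Mfge8, which encodes a secreted bridge between dying cells and phagocytes, had medians of 26.7 and 33.7 in NO_AG and 28.2 and 18.1 in AG. Its spread over cells was wide in AG, where the middle 50% of cells ran from 1.76 to 90.3 in AG 1 and from 0.855 to 92 in AG 2, compared with 14.9 to 41.3 in NO_AG 1 and 16.9 to 58.7 in NO_AG 2. Mfge8 was also averaged over the cells kept out by the C1q condition alone, described below. Those means were 24.9 and 59.3 in NO_AG 1 and 2, and 41.2 and 129 in AG 1 and 2. Members had 31.2 and 39.3 in NO_AG, and 54.5 and 49.4 in AG. Mean Cd207 in those cells was 19.4 and 23.5 in NO_AG, and 11.1 and 13.3 in AG. In members it was 23.6 and 20.9 in NO_AG, and 16.8 and 6.95 in AG.

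At the edges of the rule, the members with the most Krt5 and Krt14 held 19.7 per 10000, and the nearest cell kept out by these genes alone held 21.7. For C1q the member nearest the bound held 9.89 and the nearest cell kept out by C1q alone held 10.4. Members with only 1 Cd207 UMI numbered 6 of 188, 3 of 119, 1 of 28, 3 of 7 and 1 of 2. Cd207 UMIs also occurred outside the rule, in 134, 136, 41, 61, 15 and 22 cells of the libraries in the order NO_AG 1 to AG_CPI 2. In keratinocytes, which should lack Cd207, 1.34% and 1.85% of NO_AG cells had a UMI, at median depths of 5291 and 6144 UMIs. The AG keratinocytes had one in 0.105% and 0.142%, at 6913 and 2358 UMIs, and those of AG_CPI in 0 of 143 and 0 of 256 cells. In the T cell gate the NO_AG mice had 5.02% and 5.62%, the AG mice 0.887% and 1.08% and the AG_CPI mice 0.157% and 0.252%.

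Langerhans cells made up less of the recovered cells when antigen was on, and the AG_CPI mice held almost none. NO_AG 1 had 188 of 4972 cells (3.78%, 95% Wilson interval 3.29 to 4.35) and NO_AG 2 had 119 of 4095 (2.91%, 2.43 to 3.47). AG 1 had 28 of 3503 (0.799%, 0.554 to 1.15) and AG 2 had 7 of 4664 (0.15%, 0.0727 to 0.310). AG_CPI 1 had 2 of 1736 (0.115%, 0.0316 to 0.419), and AG_CPI 2 had 0 of 2208, which allows a share of up to 0.136%. Both NO_AG mice lay above both AG mice, and both AG mice above both AG_CPI mice. The intervals and limits cover counting error only.

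The mean share was 3.34% ± 0.619 (SD, n = 2) in NO_AG, 0.475% ± 0.459 in AG and 0.0576% ± 0.0815 in AG_CPI. On the log2 odds, limma over 10 gated cell classes gave −3.24 (SE 0.880, adjusted p = 0.00862) for AG minus NO_AG. The classes called in this contrast were 40% of all 10. AG_CPI minus NO_AG gave −5.91 (SE 0.880, adjusted p = 5.87e-05), with 90% of classes called, and AG_CPI minus AG gave −2.67 (SE 0.880, adjusted p = 0.0463), with 20% called. The exact two-sided permutation test over mice gave 0.333 for each contrast and 0.0667 over the 3 groups, the smallest values that these numbers of mice allow. Without the cells that held Xcr1 or Clec9a, the differences were −3.59, −7.06 and −3.47, with adjusted p of 1.97e-05, 4.11e-11 and 6.78e-05 in limma. In that fit limma gave all classes the same SE, 0.638, so these p-values rest on a spread pooled over the classes. Both AG_CPI mice then held no cells. The sizes of −7.06 and −3.47 were thus set by the 0.5 added to each number.

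These shares rest partly on what else was recovered. With the cells outside the T cell gate as denominator, the NO_AG mice had 5.38% and 4.74%, the AG mice 1.90% and 0.276%, and the AG_CPI mice 0.435% and 0 of 620 cells. The difference for AG minus NO_AG was then −2.80 (limma adjusted p = 0.117), for AG_CPI minus NO_AG −4.67 (0.0120), and for AG_CPI minus AG −1.87 (0.331). Without the Xcr1 or Clec9a cells the first of these was −3.15 (limma adjusted p = 0.0211). Without the Epcam or Mfge8 condition AG_CPI 1 had 7 of 1736 cells and AG 2 had 10 of 4664, so that these mice changed order, and AG_CPI minus AG was −0.53 (limma adjusted p = 0.552). Leaving out AG 2 gave −2.07 for AG minus NO_AG. AG_CPI minus AG was −1.33 without AG_CPI 2, −1.50 without AG 1, −3.84 without AG 2 and −4.00 without AG_CPI 1, the library with Ddx3y. Each of these leaves a single mouse in a group, so only the size is given. Without AG_CPI 1 that mouse is AG_CPI 2, with 0 of 2208 cells, so −4.00 was set by the 0.5 added to each number.

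Set against their neighbours, the NO_AG mice had 7.90 and 6.86 Langerhans cells per 100 keratinocytes and the AG mice 2.94 and 0.498. AG_CPI 1 had 1.40 and AG_CPI 2 had 0, where 256 keratinocytes allow up to 1.17. The keratinocyte numbers were 2381, 1734, 953, 1406, 143 and 256 in the same order of mice. The log2 ratio differed by −2.55 for AG minus NO_AG and by −3.66 for AG_CPI minus NO_AG, with no overlap between the groups and an exact permutation p of 0.333 for both. AG and AG_CPI overlapped, with a difference of −1.12 (exact permutation p = 0.667). With the Xcr1 or Clec9a cells left out, and so both cells of AG_CPI 1, the groups did not overlap and the differences were −2.89, −4.81 and −1.91 for AG minus NO_AG, AG_CPI minus NO_AG and AG_CPI minus AG (exact permutation p = 0.333 for each). Both AG_CPI mice then held no cells, which allows up to 2.10 and 1.17 per 100 keratinocytes. These limits lie above the 0.498 of AG 2 with all its members. The separation of AG_CPI from AG thus depended on the 0.5 added to each number and was not shown by the counts.

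**Figure D2:**
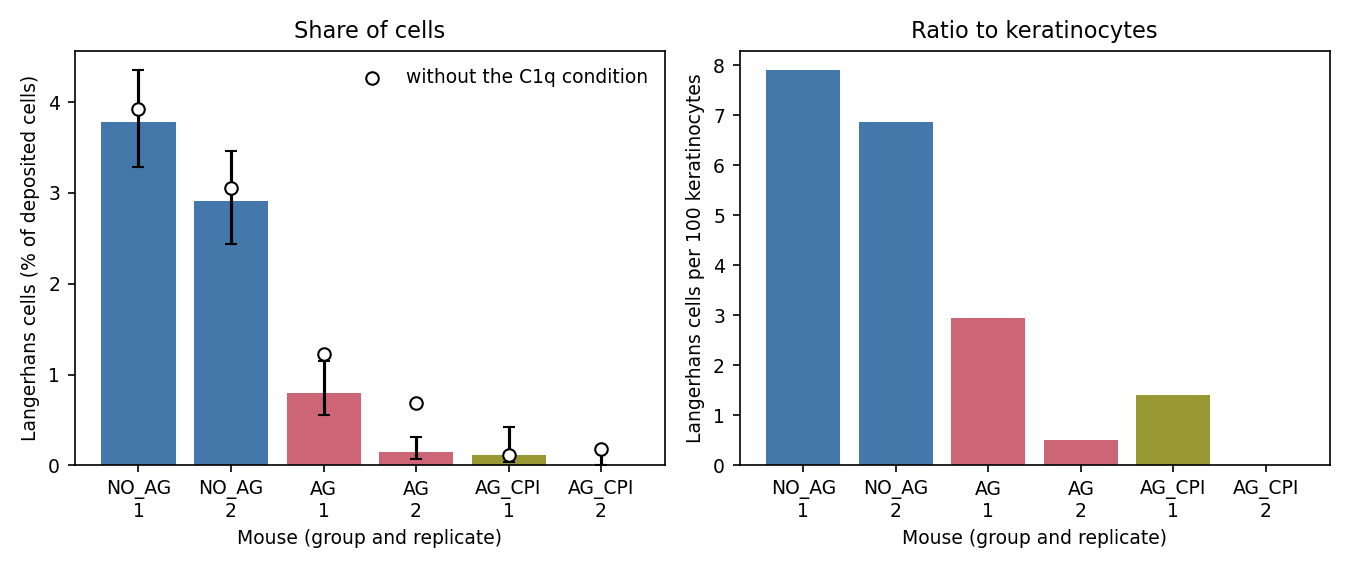
Left, Langerhans cells as a percent of all deposited cells of each mouse, with Wilson 95% intervals as bars and open points for the share without the C1q condition. Right, Langerhans cells per 100 keratinocytes of each mouse; the NO_AG mice stood at 7.90 and 6.86 and all other mice at 2.94 or below.

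The C1q condition, meant to keep macrophages out, took away more cells in AG than in NO_AG. C1qa, C1qb and C1qc encode the first component of complement, which tissue macrophages make. This condition alone kept out 7 and 6 cells of NO_AG 1 and 2, 15 and 25 cells of AG 1 and 2, and 0 and 4 cells of AG_CPI 1 and 2. With these cells added, the shares were 3.92%, 3.05%, 1.23%, 0.686%, 0.115% and 0.181% in the same order. AG minus NO_AG was then −1.94 on the log2 odds (limma adjusted p = 0.00561), AG_CPI minus AG −2.45 (0.00137) and AG_CPI minus NO_AG −4.39 (5.01e-08).

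Genes that the rule did not use gave a mixed picture of these cells. Ltc4s was found in 19 of the 25 cells of AG 2 and in 8 of the 15 of AG 1, and Csf1r, which macrophages also express, in 21 and 15. In AG 2 mean Ltc4s and Csf1r were 6.31 and 5.51 UMIs per 10000 in these cells, above the 2.79 and 2.85 of its 7 members. In AG 1 they were 5.22 and 4.01, below the 5.95 and 4.86 of its members. So in AG 2 the C1q condition kept out the cells with the higher means of both genes, and the member values of AG 2 rest on the other 7. Lyz2, the lysozyme gene of macrophages and monocytes, had 6.40 UMIs per 10000 in the 15 cells of AG 1 compared with 1.27 in its members, but 0.0989 in the 25 cells of AG 2 compared with 2.40. Adgre1, which encodes the macrophage protein F4/80, was found in 40% of these cells in AG 1 and 24% in AG 2. Members held it in 10.7% and 14.3% of cells in AG, but in 38.3% and 34.5% in NO_AG. Apoe had 1.79 and 1.53 in these cells, compared with 0.370 and 0.864 in AG members and 3.87 and 2.47 in NO_AG members. Mrc1, a macrophage mannose receptor gene, was at 0 in these cells and in the members of both AG mice, and was found in 2 of the 4 cells of AG_CPI 2.

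For the genes inside Langerhans cells, AG was compared with NO_AG over 4 mice. The members of a mouse held 817585, 640144, 227063 and 54770 UMIs in the order NO_AG 1 to AG 2. No gene of 5646 passed a Benjamini-Hochberg adjusted p of 0.05 in limma (0% called). The smallest adjusted p was 0.110, and 332 genes that were higher (5.88%) and 414 that were lower in AG (7.33%) had an unadjusted p under 0.05. Both AG mice lay above both NO_AG mice in 15.1% of genes and below them in 35.9%, and the median change of all tested genes was −0.14 on the log2 scale. With the deposited scaling alone that median was −0.29, so changes near 0 depend on the scaling. Because the NO_AG members held more UMIs, 2918 of the tested genes met the filter on low values (10 UMIs and a mean of 0.1 per 10000 in 2 libraries) only through NO_AG, and 2, Plet1 and Itgae, only through AG. Such genes were favoured to be high in the group that admitted them. Over the 2726 genes admitted through both groups, both AG mice lay above in 24.3% and below in 24.6%, and the median change was 0.11.

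Giving each mouse weight by its number of Langerhans cells, limma called 66 genes higher in AG (1.17%) and 34 lower (0.602%). Of these, 2 of the higher ones were admitted only through AG and 20 of the lower ones only through NO_AG. Without the Xcr1 or Clec9a cells the weighted counts were 32 (0.573%) and 21 (0.376%). Adding the cells kept out by C1q alone, an alternative chosen after seeing the data, limma with equal weights called 199 genes higher (3.41%) and 101 lower (1.73%). These fits are named below as the weighted fit and the fit with C1q cells. The weights follow the 188, 119, 28 and 7 members of the mice, so the AG side of the weighted fit rests mostly on AG 1. That fit takes the spread to fall with the number of cells, which the spread between mice need not do. All fold changes are on the log2 scale of the mean per 10000 plus 0.1, which understates changes of low genes.

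The class I pathway presents peptides from inside the cell to CD8 T cells. Of 16 listed genes 14 were tested, and in 13 both AG mice lay above both NO_AG mice, in none below, compared with 15.1% and 35.9% of all genes. All 14 were admitted through both groups, and over all such genes the shares were 24.3% and 24.6%. The median change of the list was 1.38, and 1.17 without the Xcr1 or Clec9a cells. None of the 14 passed with equal weights, and 12 had an unadjusted p under 0.05, compared with 5.88% of all genes at such a p and higher in AG. In the weighted fit 7 passed, compared with 1.17% of all genes, and 6 without the Xcr1 or Clec9a cells, compared with 0.573%, when Psmb9 did not pass.

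The heavy chain genes H2-K1 and H2-D1 lie on chromosome 17 in the major histocompatibility complex. The stretch of each promoter with a palindromic motif known as enhancer A is shown because 13 of the 14 tested genes of the list did not overlap between the groups in the same direction, with the matched bases in capitals. The B2m stretch, from the light chain gene on chromosome 2, shows a match of an interferon-response motif. Sequences are from RefSeq (GRCm38.p6).
H2-K1 (chr17:34000414-34000492, minus strand): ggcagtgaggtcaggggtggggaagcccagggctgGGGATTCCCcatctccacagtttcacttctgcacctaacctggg
H2-D1 (chr17:35262889-35262967, plus strand): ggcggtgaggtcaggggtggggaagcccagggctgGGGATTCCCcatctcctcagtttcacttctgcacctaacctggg
B2m (chr2:122147513-122147591, plus strand): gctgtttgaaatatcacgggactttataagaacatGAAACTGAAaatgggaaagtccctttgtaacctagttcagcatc

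The H2-K1 and H2-D1 stretches had 77 of 79 bases in common (97.5%). Searched on both strands in promoters of 300 bases (250 before to 50 after the start), GGGANTCCC was found in 0.767% of 32851 promoters and GAAANNGAA in 8.56%. Of the 14 list members with a promoter entry, H2-K1 and H2-D1 held the first motif, and B2m, Psme1 and Erap1 the second. No match of one motif overlapped a match of the other in these 14 promoters. A match describes letters only. Other forms of an interferon-response motif than GAAANNGAA were not searched for. A promoter without a match, those of H2-K1 and H2-D1 included, is thus not shown to lack such a motif.

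H2-D1 had 8.07 and 8.69 UMIs per 10000 in NO_AG 1 and 2, and 19.4 and 18.8 in AG 1 and 2. H2-K1 had 5.95 and 7.57 in NO_AG, and 18.6 and 14.6 in AG. Both AG mice lay above both NO_AG mice for each gene. The log2 fold change was 1.36 (SE 0.135, limma adjusted p = 0.110) for H2-D1 and 1.46 (SE 0.197, limma adjusted p = 0.123) for H2-K1, and the weighted fit gave limma adjusted p of 0.00114 and 0.00206. Class I heavy chains are near-identical copies, so how reads were split between them is uncertain. B2m had 13.1 and 17.7 in NO_AG and 22.7 and 22.6 in AG, a log2 fold change of 0.75 (SE 0.184, limma adjusted p = 0.236), and it did not pass in the weighted fit (0.118).

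The peptide supply genes followed the same order. Tap1, a subunit of the transporter that moves peptides into the endoplasmic reticulum, had 0.569 and 0.599 in NO_AG and 2.45 and 3.35 in AG (weighted limma adjusted p = 0.00249). Psme1, a proteasome activator subunit, had 2.15 and 2.65 in NO_AG and 7.12 and 8.12 in AG (0.00186 in the weighted limma fit). No mouse of one group overlapped with the other for either gene. Psme2, Psmb8 and Psmb9, the other activator subunit and immunoproteasome subunits, also passed in the weighted fit, at 1.89, 1.39 and 1.65 on the log2 scale with equal weights. The second transporter subunit, Tap2, had 0.407 and 0.664 in NO_AG and 1.32 and 2.78 in AG and did not pass (weighted limma adjusted p = 0.0826). In the fit with C1q cells 11 of the 14 passed, B2m and Tap2 among them, compared with 3.41% of all genes called higher.

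**Figure D3:**
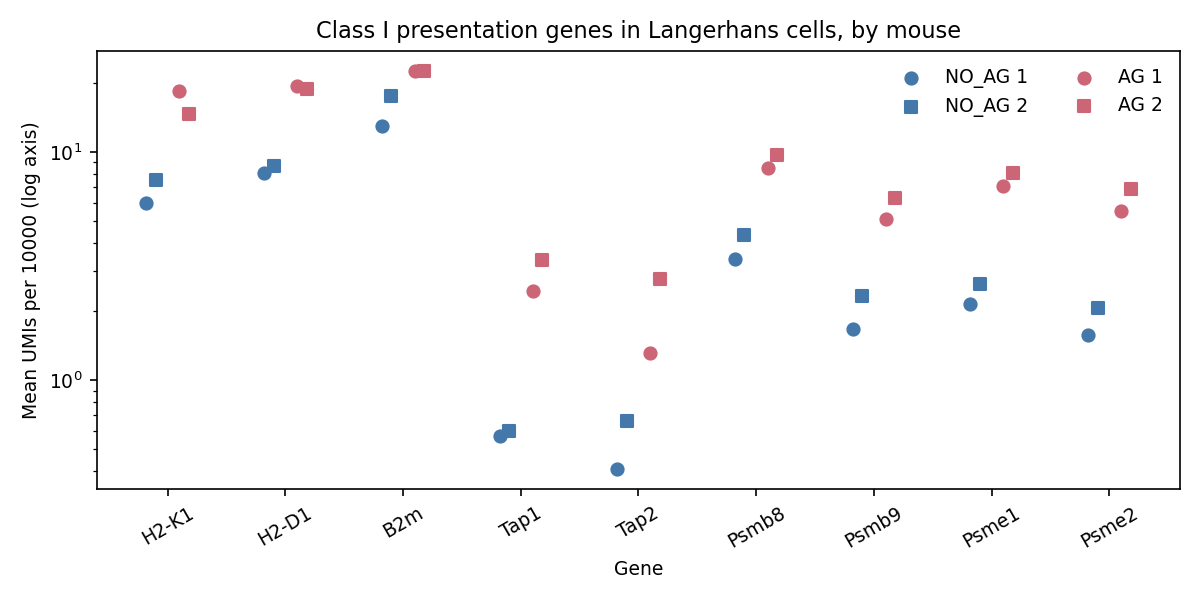
Mean UMIs per 10000 (log axis) of 9 class I presentation genes over the Langerhans cells of each NO_AG mouse (blue) and AG mouse (red). For all 9 the AG mice lie above the NO_AG mice, as for Tap1 at 2.45 and 3.35 compared with 0.569 and 0.599.

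Of 32 listed interferon-gamma response genes 26 had a column and 13 were tested, 5 of which are also class I genes. Both AG mice were above both NO_AG mice in 10 and below in none, compared with 15.1% and 35.9% of all genes and 24.3% and 24.6% of those admitted through both groups, as all 13 were. The median change was 1.77, or 1.53 without the Xcr1 or Clec9a cells. In the weighted fit 6 passed, which were the 5 shared genes and Irf8, and in the fit with C1q cells 10 passed, compared with 1.17% and 3.41% of all genes called higher in these fits. Leaving out the Xcr1 or Clec9a cells, 4 passed in the weighted fit, all of them class I genes, and Irf8 and Psmb9 did not. Gbp2, a guanylate-binding protein gene, had 0.152 and 0.0731 in NO_AG and 0.713 and 0.450 in AG (limma adjusted p = 0.256). Irf8 had 1.14 and 1.33 in NO_AG and 4.56 and 8.01 in AG, but 1.89 and 1.54 in AG without the Xcr1 or Clec9a cells, when its log2 fold change was 0.75 in place of 2.37.

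Cxcl9, which encodes a chemokine for T cells, was found in few cells. It had UMIs in 5 of 188 and 0 of 119 members in NO_AG, and in 8 of 28 and 1 of 7 in AG. Its mean was 0.959 and 0 per 10000 in NO_AG and 7.50 and 0.292 in AG. The NO_AG and AG mice overlapped, and the high mean was that of AG 1 alone. Without the Xcr1 or Clec9a cells that mouse had 2.11.

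The type I interferon list had 10 tested genes of 28 listed. In 4 both AG mice lay above both NO_AG mice, and none lay below, compared with 15.1% and 35.9% of all genes. The median change was 0.55, or 0.63 without the Xcr1 or Clec9a cells. The weighted fit called 3, which were Bst2, Ifi27l2a and Ly6e, compared with 1.17% of all genes called higher. Of the 10, 4 were admitted only through NO_AG and were not among these. Over the 6 admitted through both groups, both AG mice lay above in 4 (66.7%), compared with 24.3% of all such genes, and the median change was 1.44. Bst2, which encodes the antiviral membrane protein tetherin, had 0.352 and 0.867 in NO_AG and 3.02 and 4.4 in AG. Ly6e had 5.15 and 5.82 in NO_AG and 15.2 and 8.38 in AG, and Ifi27l2a had 0.273 and 0.188 in NO_AG and 1.32 and 2.01 in AG. For these 3 genes the groups did not overlap.

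Class II genes, which present peptides to CD4 T cells, showed small differences. Of 9 tested outside the rule, both AG mice were above in 3 and below in 2 (33.3% and 22.2%). All 9 were admitted through both groups, and over all such genes the shares were 24.3% and 24.6%. The list's median was 0.26, or 0.04 without the Xcr1 or Clec9a cells, and none passed with equal weights or in the weighted fit. H2-Aa, a class II alpha chain gene that the rule did not use, had 174 and 188 UMIs per 10000 in NO_AG and 170 and 178 in AG (log2 fold change 0.13, SE 0.122, limma adjusted p = 0.659). The H2-Aa value was −0.12 without the Xcr1 or Clec9a cells, and with the deposited scaling alone −0.05. H2-Eb1, a beta chain gene, had 136 and 143 in NO_AG and 142 and 161 in AG. The groups overlapped for both. Ciita, the master regulator of class II transcription, had 2.18 and 1.56 in NO_AG and 2.80 and 3.48 in AG (limma adjusted p = 0.274). H2-DMa, which encodes part of the peptide exchange factor, had 28.1 and 24.5 in NO_AG and 18.5 and 14.8 in AG (limma adjusted p = 0.322). In the fit with C1q cells H2-Eb1 and Ctss passed as higher.

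Among 21 tested Langerhans identity genes outside the rule, both AG mice lay below in 12 and above in 4, compared with 35.9% and 15.1% of all genes. The median change was −0.26, and −0.50 without the Xcr1 or Clec9a cells, compared with −0.14 and −0.29 over all tested genes. Of the 21, 6 were admitted by the filter only through NO_AG; in the other 15 both AG mice lay below in 8 and above in 4, and their median change was −0.06, compared with 0.11 over all genes admitted through both groups. The weighted fit called 3 lower, 1 of them (Tmem176b) admitted only through NO_AG, and 2 higher, compared with 0.602% and 1.17% of all genes. Without the Xcr1 or Clec9a cells it called Ltc4s as lower and Lgals3 as higher, and Irf8, the other higher gene, lost its call. Ltc4s, which makes leukotriene C4, had 16.8 and 16.1 UMIs per 10000 in NO_AG and 5.95 and 2.79 in AG. No AG mouse reached the NO_AG level, and the log2 fold change was −1.81 (SE 0.351, limma adjusted p = 0.211, weighted limma adjusted p = 0.00251). The means without the Xcr1 or Clec9a cells were 7.21 and 3.54 in AG.

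Csf1r, the receptor on which these cells depend, had 6.63 and 5.27 in NO_AG and 4.86 and 2.85 in AG, which did not pass (log2 fold change −0.48, SE 0.290, limma adjusted p = 0.510). Tnfaip2 had 4.44 and 3.89 in NO_AG and 1.67 and 0.490 in AG, and Tmem176b had 1.85 and 1.18 in NO_AG and 0.196 and 0.492 in AG. Tnfaip2 passed as lower in the weighted fit (limma adjusted p = 0.0483), and did not pass without the Xcr1 or Clec9a cells or with the C1q cells. Tmem176b is given as levels only, since only the NO_AG mice let it through the filter. Sirpa, an inhibitory receptor gene, had 2.07 and 1.88 in NO_AG and 0.924 and 0.603 in AG and did not pass (limma adjusted p = 0.254). Lgals3, which encodes galectin-3, went the other way, with 5.02 and 6.86 in NO_AG and 18.4 and 21.2 in AG (log2 fold change 1.91, SE 0.204, limma adjusted p = 0.110, weighted limma adjusted p = 0.00140). Id2, a transcription factor that Langerhans cells need, had 5.73 and 6.75 in NO_AG and 8.89 and 9.92 in AG (limma adjusted p = 0.222).

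**Figure D4:**
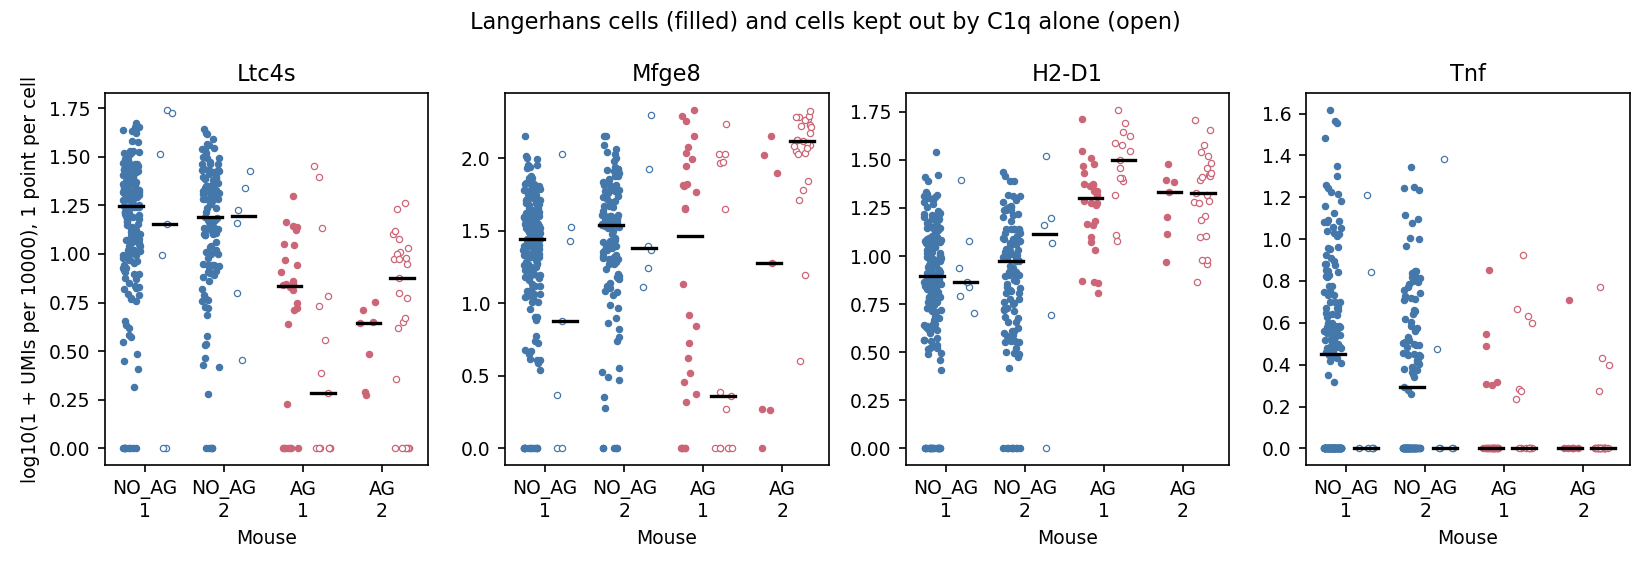
Ltc4s, Mfge8, H2-D1 and Tnf in each Langerhans cell (filled) and in each cell kept out by the C1q condition alone (open), as log10 of 1 plus UMIs per 10000, by mouse, with lines at the medians. The median Ltc4s of members is 5.86 and 3.43 UMIs per 10000 in AG 1 and 2 compared with 16.7 and 14.5 in NO_AG 1 and 2, and Mfge8 is spread from 0 to 214 in AG 1.

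Maturation and migration genes were sparse. Ccr7, the receptor that guides mature dendritic cells to lymph nodes, was found in 2 of 188 and 1 of 119 members in NO_AG and in 2 of 28 and 1 of 7 in AG, or 1.06%, 0.840%, 7.14% and 14.3% (exact permutation p = 0.333), with no overlap. The AG cells were deeper, with medians of 9258 and 5835 UMIs compared with 4043 and 5284. With each member thinned to 1500 UMIs, Ccr7 remained in 1, 0, 1 and 0 cells, so no difference was detectable at this depth. Of 9 tested genes of the list, 5 had both AG mice above and none below, compared with 15.1% and 35.9% of all genes, and 2 of the 9 were admitted only through NO_AG. The list's median change was 1.39, or 1.38 without the Xcr1 or Clec9a cells, and none passed with equal weights, in the weighted fit or in the fit with C1q cells. Ccl22, a chemokine gene of mature dendritic cells, had 0.0922 and 0.410 in NO_AG and 1.84 and 1.35 in AG (limma adjusted p = 0.222), and Il4i1, an amino acid oxidase gene, had 0.0391 and 0.320 in NO_AG and 0.423 and 3.11 in AG. Relb, an NF-kappaB subunit gene, had 0.250 and 0.311 in NO_AG and 0.478 and 1.31 in AG.

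Of 18 costimulatory and checkpoint ligands only 6 passed the filter on low values, so Cd80 and Cd274 were not tested. Both AG mice were above both NO_AG mice in 2 of the 6 and below in none, compared with 15.1% and 35.9% of all genes. Their median change was 0.35, or 0.17 without the Xcr1 or Clec9a cells, and none passed with equal weights or in the weighted fit. With the C1q cells Cd40 and Cd83, which are raised on activated dendritic cells, passed as higher. Cd86, a ligand of CD28, had 1.54 and 1.72 in NO_AG and 2.00 and 2.73 in AG (log2 fold change 0.66, SE 0.249, limma adjusted p = 0.360).

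Of 9 tested cytokine and chemokine genes, both AG mice were below in 3 and above in 1, compared with 35.9% and 15.1% of all genes. The median change was 0.10, −0.07 with the deposited scaling alone and −0.10 without the Xcr1 or Clec9a cells. Tnf, which encodes tumour necrosis factor, was found in 101 of 188 and 62 of 119 members in NO_AG and in 6 of 28 and 1 of 7 in AG. Its mean was 3.56 and 2.42 per 10000 in NO_AG and 0.495 and 0.585 in AG, so the groups did not overlap although the AG cells were deeper. The log2 fold change was −2.09 (SE 0.290, limma adjusted p = 0.127), and it passed in the weighted fit (0.00809 in limma) and in the fit with C1q cells. Tnf had 0.512 and 0.818 in AG without the Xcr1 or Clec9a cells. Cxcl16, which encodes a membrane-bound chemokine for CXCR6-bearing T cells, had 1.36 and 1.23 in NO_AG and 5.92 and 3.15 in AG (log2 fold change 1.84, SE 0.330, limma adjusted p = 0.194, weighted limma adjusted p = 0.00140), and 4.39 and 2.53 in AG without the Xcr1 or Clec9a cells. Il18 had 1.79 and 1.32 in NO_AG and 0.747 and 1.02 in AG and did not pass (limma adjusted p = 0.451).

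None of 10 tested genes of the TGF-beta pathway, which Langerhans cells need to stay in the epidermis, passed with equal weights, in the weighted fit or in the fit with C1q cells, and the list's median change was 0.10, or −0.05 with the deposited scaling alone. Of 8 tested genes of adhesion to keratinocytes outside the rule, both AG mice were below in 5 and above in 1, compared with 35.9% and 15.1% of all genes. The filter admitted 3 of the 8 only through NO_AG and 1, Itgae, only through AG. Over the 4 admitted through both groups, both AG mice lay below in 2 and above in 0, and the median change was −0.14, compared with 0.11 over all such genes. Cldn1, a tight junction gene, had 4.87 and 4.91 in NO_AG and 2.99 and 2.75 in AG (log2 fold change −0.57, SE 0.167, limma adjusted p = 0.275). Itgae, the integrin chain that binds E-cadherin and also a marker of type 1 dendritic cells, had 0.0548 and 0.0767 in NO_AG and 0.891 and 1.29 in AG, which is given as levels only, since only the AG mice let it through the filter. Without the Xcr1 or Clec9a cells it had 0.747 and 0.166 in AG and did not pass the filter on low values.

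Cycling genes were found in a minority of members in all 4 mice. UMIs of Mki67 or Top2a occurred in 20 of 188 and 18 of 119 members of NO_AG and in 6 of 28 and 1 of 7 of AG, or 10.6%, 15.1%, 21.4% and 14.3%, and the groups overlapped (exact permutation p = 0.667). Thinned to 1500 UMIs the shares were 5.32%, 7.56%, 7.14% and 14.3%. Of 13 tested cell cycle genes none passed with equal weights or in the weighted fit, and the median change was −0.76. The median was −0.96 without the Xcr1 or Clec9a cells, −0.06 in the weighted fit and −0.29 in the fit with C1q cells, where Cenpf was called lower. Of the 13, 7, Cenpf among them, were admitted only through NO_AG in the fit without C1q cells. Over the other 6 the median change was −0.42, with both AG mice above in 1 and below in 1.

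**Figure D5:**
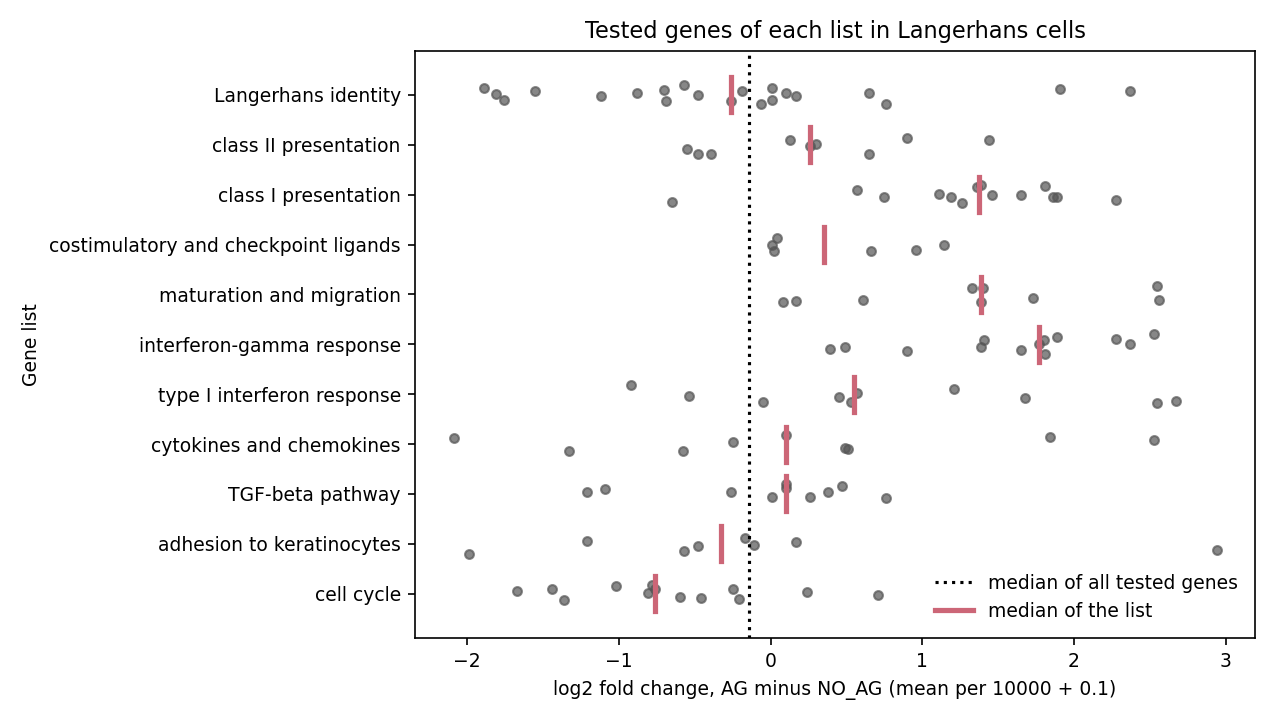
The log2 fold change, AG minus NO_AG, of each tested gene (points) by list, without the rule's own genes, with the list's median in red and the median of all tested genes, −0.14, as a dotted line. The class I and interferon-gamma lists have medians of 1.38 and 1.77, the identity list −0.26.

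The 10 genes with the smallest p, none of which passed with equal weights, were Cyba, Ass1, Mpeg1, Tmsb10, H2-D1, Tgfbi, Lgals3, Psme1, Plet1 and Tspo, all at a limma adjusted p of 0.110 and all higher in AG. Cyba, a subunit gene of the phagocyte NADPH oxidase, had 2.48 and 2.61 in NO_AG and 9.05 and 10.3 in AG. Ass1, an enzyme gene of arginine synthesis, had 0.231 and 0.352 in NO_AG and 4.99 and 3.56 in AG. These remained apart without the Xcr1 or Clec9a cells, at 7.76 and 12.4 for Cyba and 3.94 and 3.33 for Ass1 in AG. Mpeg1, which encodes the pore-forming perforin-2, had 0.276 and 0.251 in NO_AG and 2.53 and 3.45 in AG, but 1.03 and 0.832 in AG without those cells, and was found in all 13 of them and in 7.85% of the other 331. Tgfbi, Tmsb10 and Tspo also had lower changes without those cells, at 2.59, 2.14 and 1.1 in place of 3.38, 2.49 and 1.62.

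Plet1, which encodes a membrane-anchored epithelial protein, had no UMI in any of 188 and 119 NO_AG members and was found in 7 of 28 and 3 of 7 AG members. With each member thinned to 1500 UMIs it remained in 6 of 28 and 0 of 7 AG members. Its mean in AG was 1.63 and 3.86 per 10000. Plet1 met the filter only through AG, so its test carries no weight. The other 9 genes passed in the weighted fit. Without the Xcr1 or Clec9a cells, Plet1 had 1.99 and 1.39 in AG 1 and AG 2.

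Markers of other cell types were counted in the members of each mouse. The summed level of 14 keratinocyte markers was 9.06 and 3.95 UMIs per 10000 in NO_AG and 2.54 and 3.39 in AG, with Dsg3 at 0 in all 4 mice. Of 10 macrophage markers, which include the C1q genes bounded by the rule, the sum was 7.53 and 5.32 in NO_AG and 3.97 and 5.45 in AG, with Fcgr1 and Cd163 at 0. The 7 type 1 dendritic markers summed to 0.678 and 0.558 in NO_AG and 3.44 and 5.97 in AG, with no overlap between the groups. The 7 type 2 dendritic markers, with Sirpb1c at 0 throughout, summed to 0.730 and 0.643 in NO_AG and 1.52 and 3.13 in AG. The 5 plasmacytoid markers with a column summed to 1.09 and 1.14 in NO_AG and 3.20 and 4.4 in AG, of which Bst2, also a type I interferon gene, made up 3.02 and 4.4 in AG, while Ccr9 and Klk1 were at 0 in all 4 mice. The 4 melanocyte markers summed to 0.805 and 0.455 in NO_AG and 0.0384 and 0 in AG. The 10 T cell markers summed to 0.440 and 0.478 in NO_AG and 0.388 and 0 in AG, with Cd3e, Cd3g, Trac, Trbc2 and Trdc at 0 in all 4 mice. The groups did not overlap for the keratinocyte, T cell, type 2, plasmacytoid and melanocyte lists, and the part of these markers in the gene results was not tested.

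The same contrast was set against keratinocytes of the same mice. H2-D1 had 9.26 and 9.78 UMIs per 10000 in NO_AG keratinocytes and 14.6 and 11.2 in AG keratinocytes, and Tap1 had 0.970 and 1.18 in NO_AG and 2.15 and 1.74 in AG. The AG minus NO_AG change was larger in Langerhans cells by 0.84 (SE 0.308, limma adjusted p = 0.543) for H2-D1 and by 1.39 (SE 0.389, limma adjusted p = 0.543) for Tap1, which did not pass. None of 5037 genes passed this test of the difference in limma (0% called, smallest adjusted p = 0.466), and 459 had an unadjusted p under 0.05. For B2m the difference was −0.03 (SE 0.343). No response was thus shown to be particular to Langerhans cells.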

How the data were processed

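Single-cell RNA was measured in skin of 6 mice with the Chromium Single Cell 5' kit, per the labels' protocols; Cell Ranger 3.1 and mm10 are named in the submitters' processing notes. The deposited values are log10 of 1 plus UMIs per 10000, read from the values: after inversion 100% were whole UMIs within 0.05. Gates took each cell in the order Langerhans, T cell (Cd3e or Cd3g), keratinocyte (Krt5 plus Krt14 at least 20, no Ptprc), C1q-high macrophage, other dendritic, monocyte, ILC2, fibroblast, endothelial and other. The monocyte gate rested on Ccr2, since Ly6c2 was not used here.

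Linear values were averaged over the Langerhans cells of a mouse, scaled by an unweighted trimmed mean of M-values, converted to log2 with a pseudocount of 0.1, and tested with limma 3.58.1 (limma-trend) in R 4.3.3. Genes needed 10 UMIs and a mean of 0.1 in 2 libraries; 8 symbols on more than 1 column were left out. The design asked for 10 cells a mouse; AG 2 has 7, so the fit with a minimum of 5 is reported. AG_CPI, with 2 and 0 cells, could not be fitted. Shares were tested with limma on log2 odds with 0.5 added. Intervals are Wilson 95%; the limit of a 0 is 3 counts. P-values measure the spread between these mice, which limma pools in part over genes or classes.

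Named genes are the 10 with the smallest p, members of the lists, and genes used by the checks of other cell types. The 8 genes of highest ratio needed 1 per 10000 in both NO_AG mice. The members and lists were chosen with earlier results of these data known. Alternatives were other rule bounds, a bound of 200 genes and 20% mitochondrial UMIs on cells, Scrublet (scanpy 1.11.5) doublets removed at 0.8% per 1000 cells (doublets were otherwise kept, and 5 and 2 members of NO_AG 1 and 2 and none of AG were marked), thinning to 1500 UMIs, other scaling, pseudocount and filter, weights, and leaving out each mouse. Leaving out the Xcr1 or Clec9a cells, leaving out the C1q condition, and Csf1r with Ltc4s in place of Cd207 were chosen after seeing the data. On data simulated for AG against NO_AG over 5646 genes, the fit called 22% of 4-fold and 1.2% of 2-fold changes, and the weighted fit 47.4% and 6%. The simulation set a fixed spread between mice and gave cells none beyond counting error, so these percentages need not hold for the real cells. 1 list gene is not reported by name here.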

Additional observations from a re-analysis of the deposited data

How the results depend on the processing

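The share kept its direction under all alternatives run. For AG minus NO_AG the log2 odds ratio lost its limma call with cells outside the T cell gate as denominator (−2.80) and ranged from −4.42 to −2.07 when leaving out each mouse in turn. AG_CPI minus AG lost its call with Cd207 of at least 2 UMIs (−2.64), without the Epcam or Mfge8 condition (−0.53), with cells outside the T cell gate (−1.87) and with both that denominator and the Xcr1 or Clec9a cells left out (−2.66); leaving out mice it ran from −4.00 to −1.33. The log2 ratio to keratinocytes, AG_CPI minus AG, turned to 1.02 without the Epcam or Mfge8 condition and ran from −2.70 to 0.46 when leaving out mice. The cause was not tested.

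The count of genes called, 0 with equal weights, was 100 with weights by number of cells, 53 with these weights and the Xcr1 or Clec9a cells left out, 300 without the C1q condition, and 27 to 3042 when leaving out a mouse, where a lone AG or NO_AG mouse is assumed to vary like the other group. A fit that blocked on replicate number called 164 genes, and such a block changed no call on the shares. Over genes, the deviations of NO_AG 1 and AG 1 from their group means correlated at −0.01. The AG deviation rests in part on the 7 members of AG 2. This correlation thus cannot show whether mice of the same number shared a batch, which the labels do not give. The difference from keratinocytes went from 0 genes to 2 to 2488 when leaving out mice. H2-Aa turned to −0.12 without the Xcr1 or Clec9a cells (with weights too), −0.08 with no filter, −0.05 with the deposited scaling alone and −0.06 without NO_AG 1, and ran from −0.06 to 0.13 over the mice left out. Ccr7 shares were 0 in NO_AG 1, NO_AG 2 and AG 2 when cells were thinned before the rule, and 0 in NO_AG 2 and AG 2 with Cd207 of at least 2 UMIs. Cd207 of at least 2 UMIs and thinning left 4 cells in AG 2, so genes could not be fitted; AG_CPI genes could not be fitted under any planned setting. Of 853 values for 52 single genes, 602 kept direction and side of the threshold, 246 passed where they had not, and 5 reversed. Of the 4 mice fitted for genes, AG 2 had the fewest UMIs over its members, 54770.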

Other observations

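Other genes called in the fit weighted by number of cells, outside the lists and chosen after their values were seen, are given here as values. Actb, a beta-actin gene, had 78.9 and 75.3 UMIs per 10000 in NO_AG and 149 and 181 in AG (weighted limma adjusted p = 0.000370), and 124 and 122 in AG without the Xcr1 or Clec9a cells. Tmsb4x, which encodes the actin-binding thymosin beta-4, had 78.2 and 77.3 in NO_AG and 136 and 224 in AG, or 95.6 and 152 without those cells. Gpx1, a glutathione peroxidase gene, had 1.73 and 1.80 in NO_AG and 6.98 and 11.3 in AG, or 6.55 and 11 without them. On the lower side, Hpgd, the enzyme that inactivates prostaglandins, had 2.85 and 3 in NO_AG and 0.458 and 0 in AG. Apoe, the apolipoprotein E gene, had 3.87 and 2.47 in NO_AG and 0.370 and 0.864 in AG. Pcdh7, a protocadherin gene, had 1.94 and 1.65 in NO_AG and 0.189 and 0.246 in AG, and the class I-like gene H2-M5 had 5.46 and 6.14 in NO_AG and 1.33 and 2.12 in AG. Hpgd, Apoe and Pcdh7 met the filter on low values only through the NO_AG mice, so their calls carry no weight. For these 7 genes no AG mouse overlapped with a NO_AG mouse, and none passed with equal weights.

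With Csf1r and Ltc4s in place of Cd207 in the rule, the NO_AG mice had 157 and 101 cells, the AG mice 20 and 14, and the AG_CPI mice 2 and 1. The difference in log2 odds was −2.75 for AG minus NO_AG (limma adjusted p = 0.000203) and −4.86 for AG_CPI minus NO_AG (1.77e-08 in limma). In this fit limma gave all classes the same SE, 0.573, a spread pooled over the classes.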
